A study of Prunus persica with 24 samples.

Results

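The first step of storage at 25 °C was the passage from day 1 to day 2 in the flesh of peach fruit (Prunus persica) kept at this temperature. It rests on 4 of the 24 libraries of the series, 2 from day 2 and 2 from day 1, which were chosen by their labels alone. In the deposited table these 4 libraries stand as 2 of 12 columns, 1 for each day, so that each gene has 1 value per day and no spread between fruit or libraries. The other columns used were days 3, 5, 6 and 7 at 25 °C, which show how long a difference lasted, and the same 6 days at 35 °C. All fruit, at both temperatures, had first been held at 5 °C for 2 days, then divided at random. The labels name neither a cultivar nor how many fruit entered a library.

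Peach is a climacteric fruit, in which ripening after harvest is driven by a burst of the gas hormone ethylene. During this phase the flesh softens as enzymes take apart the pectin of the cell walls, and sugars, acids, pigments and aroma compounds are remodelled. The deposited tables pair no gene name or product with an identifier, so none of these processes could be tied to a transcript here, and the labelled tissue could not be checked against marker genes.

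Transcript abundance was deposited as FPKM (fragments per kilobase of transcript, scaled to the mapped fragments of a library). Levels are given here after dividing each column by its median ratio to the geometric mean of the 12 columns. The sum of deposited FPKM was 882184 on day 2 and 823476 on day 1. Of the 15420 identifiers tested, 39 were listed at exactly 0 on day 2 and 46 on day 1. The number of reads is unknown, so no counting error or detection limit can be attached to any value. Differences between days are those of log2(FPKM + 1), a scale on which low transcripts differ by less than their FPKM ratio would give.

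The day 2 profile differed from that of day 1 in both directions, with more transcripts lower than higher. A level at least 2-fold higher on day 2 was found for 697 identifiers, or 4.52% of those tested, and one at least 2-fold lower for 951, or 6.17%. At least 4-fold, 90 were higher and 153 lower. The median identifier differed by -0.04, and the median size of the difference, whatever its sign, was 0.33. The threshold runs through a dense region, since 304 identifiers lay within 0.1 above it and 381 within 0.1 below it. Each count compares single values, so none has a test. In bulk flesh a smaller share of a cell type and less RNA per cell cannot be told apart.

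**Figure D1:**
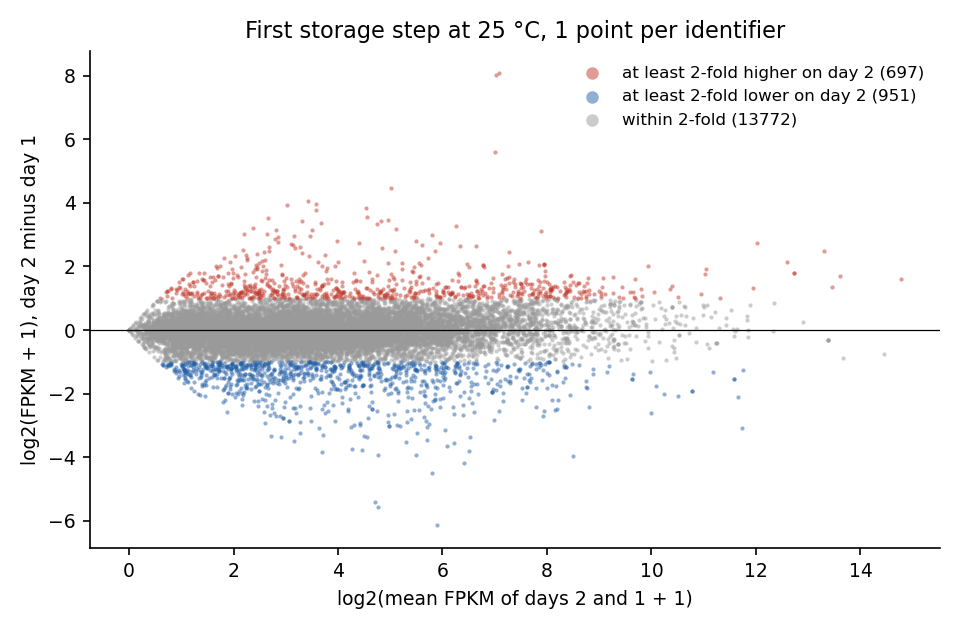
Difference between day 2 and day 1 at 25 °C (y axis, log2 of FPKM + 1) against the mean level of both days (x axis, log2 of mean FPKM + 1), with 1 point for each of 15420 identifiers. Red points are the 697 identifiers at least 2-fold higher on day 2, blue points the 951 at least 2-fold lower and grey points the rest, and most identifiers lie close to 0.

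Among the steps between successive sampling days at 25 °C, the first held the most 2-fold differences, 1648 identifiers or 10.7% of those tested. It also held the largest number higher on the later day. Against day 2, day 3 had 222 identifiers higher and 921 lower past the same threshold. The step to day 5 held 320 and 259, the step to day 6 held 542 and 808, and the step to day 7 held 240 and 585. The step from day 3 to day 5 spans a longer interval than the others. In median size the step from day 5 to day 6, at 0.37, exceeded the first step, at 0.33. Neighbouring steps share a column, and the columns of days 6 and 7 had the lowest FPKM sums at 25 °C, 652258 and 727559. What part these sums had in the counts was not tested.

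The largest difference upward was that of Prupe.3G012200, which stood at 268 FPKM on day 2 and was listed at 0 on day 1. The second, Prupe.3G012400, stood at 260 FPKM on day 2 and was listed at 0 on day 1. Both stayed high at 25 °C, with Prupe.3G012200 between 124 FPKM and 214 FPKM and Prupe.3G012400 between 104 FPKM and 207 FPKM on days 3 to 7. At 35 °C both were listed at 0 on days 1, 2, 3 and 7 and stood at 166 FPKM or more on days 5 and 6. An exact 0 can be a failed estimate in tables of this kind, and no fold is given against it. Prupe.4G009800, among the most abundant identifiers, was listed at 0 on day 2 at 35 °C, between 9478 FPKM on day 1 and 20059 FPKM on day 3. Across the table, 6 identifiers were listed at 0 on day 1 and at 5 FPKM or more on day 2, and 0 showed the opposite pattern. With 1 FPKM in place of 0 as the lower bound, the numbers were 30 upward and 33 downward.

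The largest difference downward was that of Prupe.1G161800, at 0.672 FPKM on day 2 and 117 FPKM on day 1, a log2 difference of -6.14. Its course was irregular. It stood at 33.2 FPKM on day 5 and under 1 FPKM on days 3, 6 and 7, while at 35 °C it was at 442 FPKM on day 2, against 1.05 FPKM on day 1, and at 582 FPKM on day 6. Prupe.3G144500 was at 0.139 FPKM on day 2 and 52.5 FPKM on day 1, a log2 difference of -5.55. It stayed between 0.0703 FPKM and 1.12 FPKM on days 3 to 7, so that its day 1 level stood alone at 25 °C. At 35 °C it was already at 6.78 FPKM on day 1 and was listed at 0 on day 2.

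With the scaling used here, differences among abundant transcripts were more often upward on day 2 and those among scarce ones downward, but quantile normalization removed the balance of the abundant classes. Among identifiers with a mean of 500 FPKM or more over the 12 columns, 27 of 188 were at least 2-fold higher on day 2 and 12 lower, which is 14.4% and 6.38%. In the class of 50 to 500 FPKM, 215 of 2213 were higher and 151 lower. In the class of 5 to 50 FPKM, 282 of 7802 were higher and 413 lower, and under 5 FPKM 173 of 5217 were higher and 375 lower. With quantile normalization, 146 were higher and 161 lower at 50 to 500 FPKM and 18 were higher and 18 lower at 500 FPKM or more, whereas FPKM as deposited gave 185 and 160, and 22 and 15. Under 5 FPKM and at 5 to 50 FPKM more identifiers were lower than higher on day 2 with each of these scalings.

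**Figure D2:**
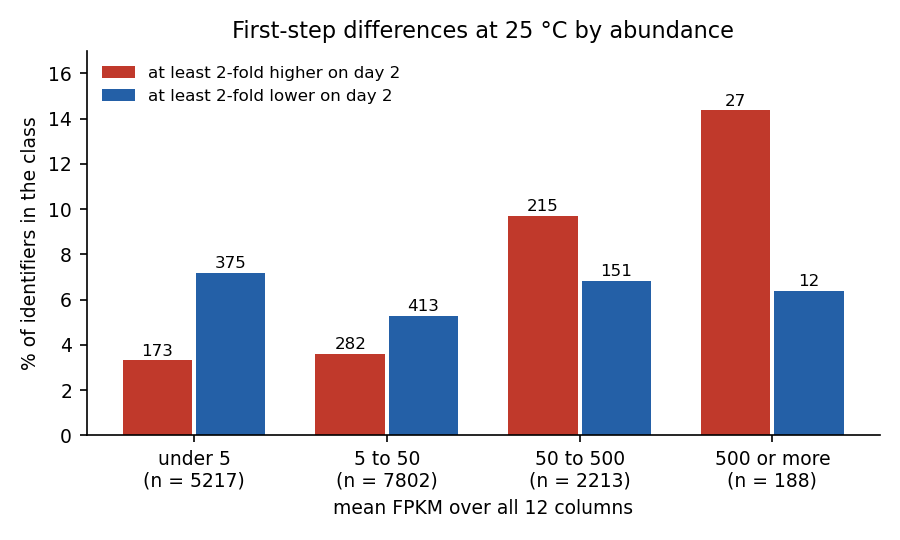
Share of identifiers at least 2-fold higher (red) or lower (blue) on day 2 than on day 1 at 25 °C (y axis, % of the class) in 4 classes of mean FPKM over the 12 columns (x axis), with the number of identifiers above each bar. The red bar is the taller one from 50 FPKM upward, at 215 against 151 and 27 against 12, a balance that quantile normalization turned or levelled.

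The identifiers higher on day 2 took 25.4% of the summed FPKM on day 2 and 9.60% on day 1. All shares of the sums are those of FPKM as deposited, before the scaling that applies to the levels. Those lower on day 2 took 3.44% on day 2 and 12.4% on day 1. The sets were chosen by these columns, so the shares on these days describe the choice. On the later days the first set still took 25.5% (day 3), 24.4% (day 5), 20.9% (day 6) and finally 22.7% (day 7), and the second between 3.22% and 4.27%. Prupe.4G009800, which gained the most FPKM and was picked for that with its values known, made up a part of this. It was at 42365 FPKM on day 2 and 13865 FPKM on day 1, a log2 difference of 1.61, and took 4.43% and 1.63% of the sums. Without it the first set took 20.9% on day 2 and 7.97% on day 1, and between 16.4% and 19.6% on the later days.

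Other abundant transcripts differed in either direction, and the 3 named next were also chosen after their values were seen, by their gain or loss of FPKM among identifiers at least 2-fold apart. Prupe.1G114500 was at 17033 FPKM on day 2 and 3072 FPKM on day 1, and it then had 11426 FPKM on day 3 and 12814 FPKM on day 5, followed by 4913 FPKM on day 6 with 5288 FPKM on day 7. It remained above its day 1 level at each later day. Prupe.7G161100 was at 719 FPKM on day 2 and 6106 FPKM on day 1, and went on to 112 FPKM on day 3 and 8.23 FPKM on day 6. Prupe.6G303600 was at 1202 FPKM on day 2 and 5231 FPKM on day 1 and lay between 535 FPKM and 1016 FPKM afterwards. These 2 transcripts therefore stayed low, the first of them by a further large margin.

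The differences downward lasted more often than those upward. Of the 951 identifiers lower on day 2, 608, or 63.9%, were at least 2-fold below day 1 on each of days 3, 5, 6 and 7. Of the 697 higher on day 2, 145, or 20.8%, were at least 2-fold above day 1 on each of these days. Among all identifiers tested, 6.65% were 2-fold below and 1.49% 2-fold above day 1 on all 4 days. No later day reached the threshold for 287 identifiers higher and 64 lower on day 2, which is 41.2% and 6.73% of the sets. All these differences share the day 1 column, and both sets were chosen partly by it, so their sizes are raised and the counts have no test. With day 1 at 35 °C as the level to depart from, a column that the choice did not use, 24.7% of the first set and 50.9% of the second lasted. The share of all identifiers tested was not counted against that column, which also belongs to the other temperature. How far these shares exceed the background is therefore not known.

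**Figure D3:**
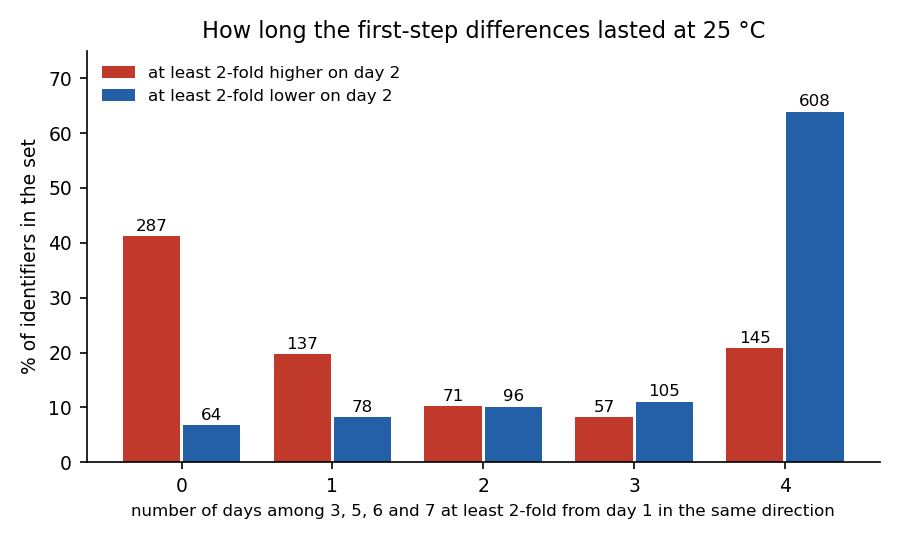
Number of days among days 3, 5, 6 and 7 on which an identifier was at least 2-fold from day 1 in its first-step direction (x axis), as % of the set (y axis), with the number of identifiers above each bar. Red bars are the 697 identifiers higher on day 2, most often at 0 days with 287, and blue bars are the 951 lower on day 2, most often at 4 days with 608.

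From day 2 to day 7, the median of the identifiers higher on day 2 drew back unevenly towards day 1. That of the identifiers lower on day 2 moved further from it. Both sets were chosen by their day 2 value, so a return after that day is partly fixed by the choice. For the first set the median difference from day 1 was 1.27 on day 2 and 0.78 on day 3, then 0.94 on day 5, and it ended at 0.47 on day 6 with 0.49 on day 7. For the second set the medians over these 5 days ran -1.38, -1.63, -1.69, -1.80 and -1.98. All identifiers tested had medians between -0.05 and -0.02. Of the first set, 38.7% were at least 2-fold above day 1 on day 3 and 47.1% on day 5, but 30.0% on day 6 with 32.0% on day 7, against 3.55%, 4.98%, 5.47% and 4.15% of all tested. Of the second set, 77.8%, 79.5%, 75.9% and 84.0% were at least 2-fold below day 1, against 9.58%, 10.7%, 12.5% and 13.0% of all tested. Day 6, where the first set stood lowest, also had the lowest FPKM sum at 25 °C, and the part of that column in the drop was not tested.

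The highest level of the 6 days fell on day 2 for 419 of the 697 identifiers, or 60.1%, and on day 5 for 127. The choice of these identifiers by their day 2 value excludes day 1 and favours day 2, on which 19.6% of all tested had their highest level. For those lower on day 2, the lowest level was that of day 7 in 344, or 36.2%, of day 6 in 228, or 24.0%, and of day 2 in 132, or 13.9%. Of all tested, the lowest level was that of day 7 in 16.4%, of day 6 in 20.5% and of day 2 in 18.8%. The difference between day 7 and day 3 uses neither column of the first step. It had a median of -0.23 in the set higher on day 2, -0.25 in the set lower on day 2 and -0.02 in all identifiers. In the set lower on day 2, 19.7% were at least 2-fold lower on day 7 than on day 3, against 10.6% of the set higher on day 2 and 4.59% of all tested. At least 2-fold higher on day 7 than on day 3 were 3.89% of the set lower on day 2, 8.46% of the set higher on day 2 and 1.96% of all tested. The set higher on day 2 thus parted both ways, with 59 identifiers upward and 74 downward.

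**Figure D4:**
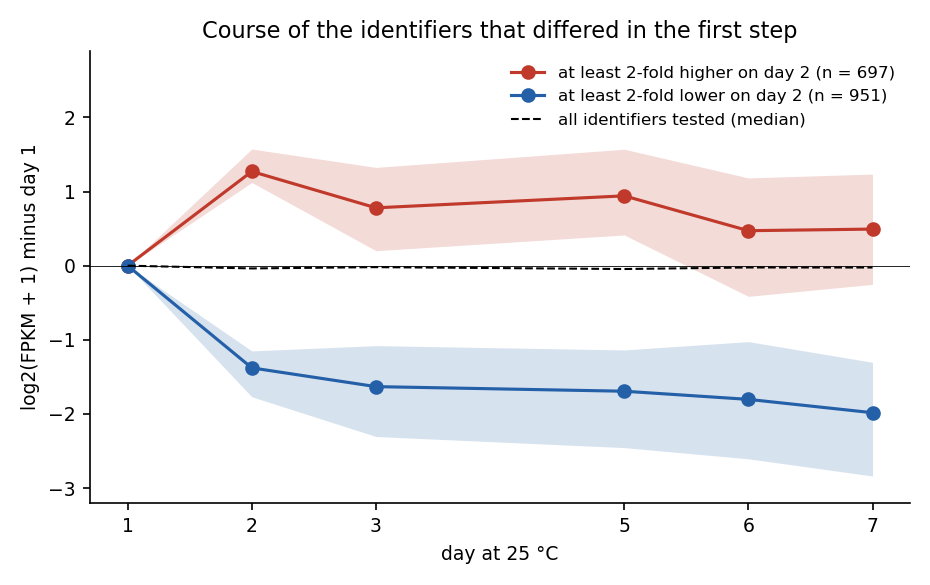
Difference from day 1 at 25 °C (y axis, log2 of FPKM + 1) by day (x axis). Red and blue lines are medians of the 697 identifiers higher and the 951 lower on day 2, bands span their quartiles and the dashed line is the median of all tested. The red median goes back to 0.49 by day 7 and the blue one goes on to -1.98.

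By class of mean FPKM, lasting differences were counted as well, but the mean includes the later days, so that a lasting difference downward itself moves an identifier towards a lower class. Under 5 FPKM, 280 of the 375 identifiers lower on day 2 stayed low on all later days, and 19 of the 173 higher on day 2 stayed high. In the class of 5 to 50 FPKM the numbers were 249 of 413 and 80 of 282, and in that of 50 to 500 FPKM they were 70 of 151 and 37 of 215. At 500 FPKM or more they were 9 of 12 and 9 of 27. The 145 lasting identifiers upward had a median of 21.4 FPKM on day 2 and 5.16 FPKM on day 1. The 287 that no later day kept had 60.5 FPKM on day 2 and 27.3 FPKM on day 1, so that they stood higher on both days.

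Among differences upward that lasted, the largest were those of Prupe.4G059600 and Prupe.6G288400, leaving out identifiers already named. Prupe.4G059600 was at 250 FPKM on day 2 and 4.22 FPKM on day 1, a 59.2-fold difference of FPKM. It then stood at 104 FPKM on day 3 and 43.1 FPKM on day 5, with 54.7 FPKM on day 6 before 68.6 FPKM on day 7, below its day 2 level but above day 1 throughout. Prupe.6G288400 was at 19.2 FPKM on day 2 and 0.201 FPKM on day 1, with a log2 difference of 4.07, and lay between 8.85 FPKM and 20.9 FPKM afterwards. At 35 °C both were also higher on day 2 than on day 1, by 4.16 and 2.65 on the log2 scale. On day 7 at 35 °C they stood at 13.4 FPKM and 15.3 FPKM, against 1.40 FPKM and 0.476 FPKM on day 1, although Prupe.4G059600 had been at 41.8 FPKM on day 2 and 8.05 FPKM on day 3.

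Among those downward that lasted, again leaving out identifiers already named, Prupe.1G311400 was at 7.77 FPKM on day 2 and 160 FPKM on day 1. Its log2 difference was -4.20. It came part of the way back, to 33.7 FPKM on day 5 and 42.6 FPKM on day 6, and at last to 51.3 FPKM on day 7. Prupe.4G049600 was at 42.2 FPKM on day 2 and 678 FPKM on day 1, a log2 difference of -3.97. It went on to 11.7 FPKM on day 3 and 4.61 FPKM on day 5, reached 3.27 FPKM on day 6, and stood at 7.83 FPKM on day 7. At 35 °C both were also lower on day 2 than on day 1, with log2 differences of -5.36 and -2.31.

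A few identifiers were back within 0.5 of their day 1 level on each of days 5, 6 and 7, on the log2 scale. These were 40 of the 697 higher and 11 of the 951 lower on day 2. The share of all identifiers tested that lay within this band was not counted. Their median absolute difference from day 1 was 0.36 on day 5, 0.43 on day 6 and 0.38 on day 7. Whether the 2 sets returned more or less often than identifiers in general is therefore not known. The largest was Prupe.3G000800, at 47.7 FPKM on day 2 and 3.82 FPKM on day 1, which stood at 9.88 FPKM on day 3 and between 3.28 FPKM and 4.64 FPKM from day 5. Prupe.6G330900 was at 9.12 FPKM on day 2 and 0.835 FPKM on day 1, and at 2.46 FPKM on day 3. At 25 °C each of them had its highest value of the 6 days on day 2, which the rule for picking them largely fixes. At 35 °C Prupe.3G000800 was highest on day 1, at 12.65 FPKM, and Prupe.6G330900 on day 3, at 2.81 FPKM.

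Downward and back went Prupe.1G069800, at 120 FPKM on day 2 and 359 FPKM on day 1, then 191 FPKM on day 3 before 446 FPKM on day 5, with 462 FPKM on day 6 but 260 FPKM on day 7. Prupe.1G527600 was at 33.2 FPKM on day 2 and 82.4 FPKM on day 1 and lay between 58.5 FPKM and 81.0 FPKM afterwards. At 35 °C neither showed a dip on day 2 beyond -0.15 on the log2 scale. A further 14 of the 697 identifiers higher on day 2 were at least 2-fold below day 1 on each of days 5, 6 and 7. Of the 951 lower on day 2, 0 were 2-fold above it on these days. The shares of all identifiers tested by these rules were not counted.

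**Figure D5:**
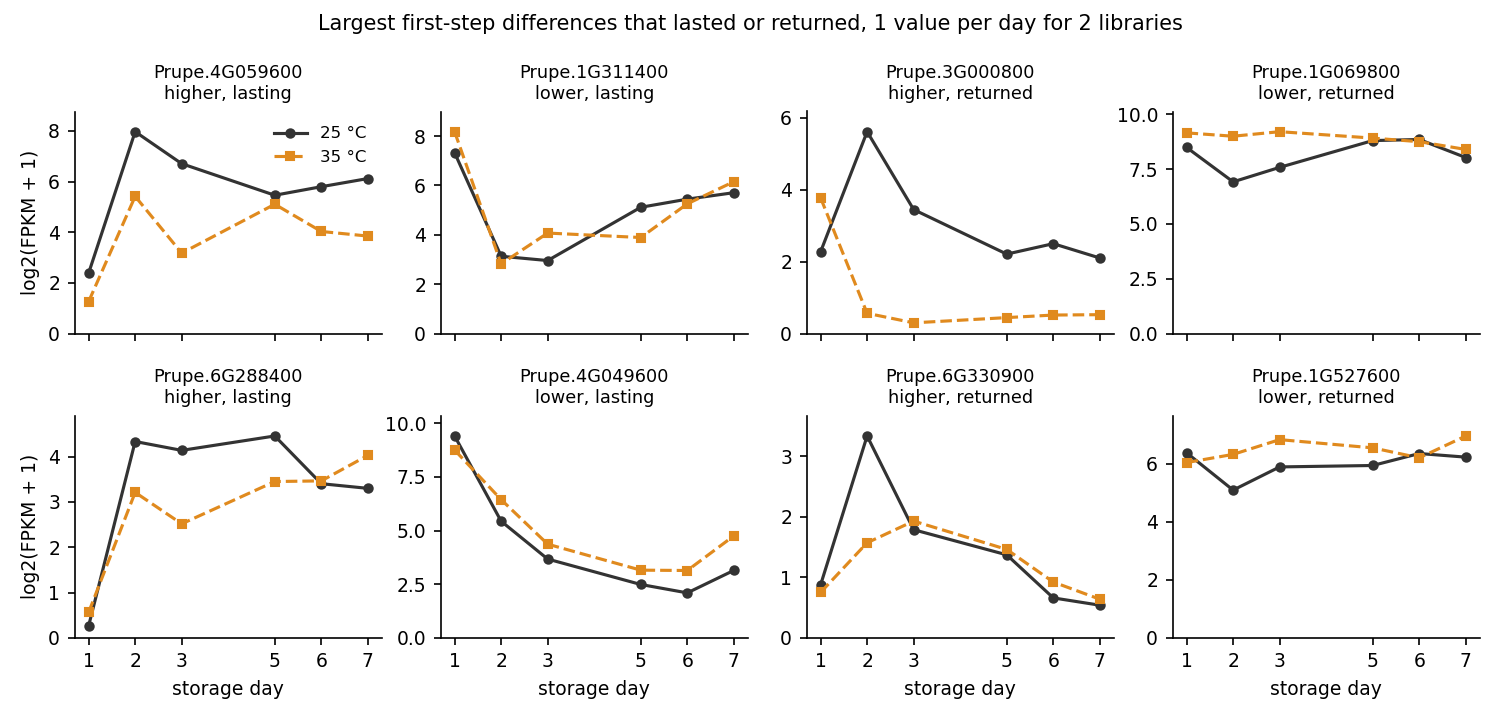
Level (y axis, log2 of FPKM + 1) on each storage day (x axis) at 25 °C (black circles) and 35 °C (orange squares), 1 value a day. Shown are the identifiers with the largest first-step differences that lasted or returned, leaving out those named before for the largest differences of all. At 25 °C, Prupe.4G049600 is at 7.83 FPKM on day 7, against 678 FPKM on day 1, and Prupe.3G000800 has its highest value, 47.7 FPKM, on day 2.

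Whether a departure from day 1 lasted was tested in limma by setting the later days at 25 °C (days 2, 3, 5, 6 and 7, averaged) against day 1. The spread is that between the 5 later days, and the lone day 1 value is assumed to vary like them, so the p-values say nothing of fruit or libraries. At a Benjamini-Hochberg adjusted p under 0.05, 313 identifiers were called, 46 higher and 267 lower after day 1, which is 0.298% and 1.73%, together 2.03%, of those tested. An unadjusted p under 0.05 was reached by 2260. All 46 called higher were at least 2-fold higher on day 2 already, as were 94.8% of the 267 in their direction, but the test includes that day. The identifiers called lower had a median change of -2.01, a median of 6.36 FPKM on day 1 and a median mean level of 2.02 FPKM. At least 1 later day was listed at 0 for 83 of them.

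The number called depended strongly on the settings and on single days. It was 16 without day 5 and 102 without day 3, 137 without day 6 and 155 without day 7, and 1069 without day 2. Of the 313, 15 were called without day 5 and 313 without day 2. Only 24 were called among identifiers with a mean of 5 FPKM or more, and 28 with a pseudocount of 0.1. Of these 28, 20 were higher and 8 lower, against 46 and 267 in the main fit. Calls at 25 °C can be set beside the 35 °C columns, which the fit did not use but the filter did. A scarce identifier could be kept through day 1 at both temperatures alone, which builds in a fall at both. Prupe.1G021500, called lower, reached 1 FPKM only on day 1, with 1.12 FPKM at 25 °C and 1.625 FPKM at 35 °C. How many calls this concerns was not counted. Of the identifiers called lower, 76.4% were below day 1 on all of days 2 to 7 at 35 °C, against 30.7% of all tested. Of those called higher, 69.6% were above day 1 on all these days, against 30.5% of all tested.

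The first identifiers named here were picked by their first-step difference, and the fit holds both columns of that step, so their p-values add no support to it. Among the named identifiers, the smallest limma adjusted p was that of Prupe.3G012200, listed at 0 on day 1, at 0.00246. Prupe.3G012400, also at 0 on day 1, had 0.00419. Both calls were lost in the limma fit on all 12 columns, at an adjusted p of 0.237 and 0.184, which were the highest values over the alternatives for each. Prupe.3G144500 fell by 5.28 ± 0.38 on the log2 scale (SE, limma adjusted p = 0.00419), a call that a pseudocount of 0.1 ended at 0.0581. Prupe.6G288400 rose by 3.66 ± 0.49 (limma adjusted p = 0.0189, up to 0.0616 over the alternatives). Prupe.4G049600 fell by 6.04 ± 1.08 (limma adjusted p = 0.0415, up to 0.113). The other large differences did not pass the limma test, with an adjusted p of 0.167 for Prupe.1G161800, 0.0617 for Prupe.4G059600 and 0.274 for Prupe.1G311400.

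The largest calls among identifiers not yet named were Prupe.2G213700 and Prupe.1G007300 upward and Prupe.3G072200 and Prupe.3G244700 downward. Prupe.1G007300 was at 22.1 FPKM on day 2 and 1.25 FPKM on day 1, and between 30.3 FPKM and 73.9 FPKM afterwards, a change of 4.19 ± 0.58 over the later days (limma adjusted p = 0.0217, up to 0.0661). Prupe.2G213700 was at 50.6 FPKM on day 2 and 3.84 FPKM on day 1, and reached 133 FPKM on day 5, a change of 4.16 ± 0.48 (limma adjusted p = 0.0135, up to 0.0542). For both, day 2 was only part of the way to the level of the days that followed.

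Prupe.3G072200 was at 10.6 FPKM on day 2 and 136 FPKM on day 1 and between 0.324 FPKM and 0.601 FPKM afterwards, a change of -5.96 ± 1.11 (limma adjusted p = 0.0465, up to 0.133). Prupe.3G244700 was at 3.10 FPKM on day 2 and 39.9 FPKM on day 1, at 0.329 FPKM or less on days 3 to 6 and listed at 0 on day 7, a change of -4.77 ± 0.70 (limma adjusted p = 0.0241, up to 0.136). In both, most of the day 1 level was gone by day 2 and the rest by day 3. The call of Prupe.3G072200 held in 7 of 16 settings and that of Prupe.3G244700 in 9 of 15.

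The same step at 35 °C shares no column with that at 25 °C and put 1607 identifiers at least 2-fold up and 1674 at least 2-fold down on day 2, or 10.4% and 10.9% of those tested. Of the set higher on day 2 at 25 °C, 223 were also at least 2-fold higher in that step at 35 °C, or 32.0% of the set, and 76 were lower, or 10.9%. Of the set lower on day 2 at 25 °C, 398 were lower at 35 °C, or 41.9%, and 86 higher, or 9.04%. Each temperature has its own table, and the sources used here do not say if both were normalized in 1 run. The filter counted the columns of both temperatures, so a scarce identifier could be kept because it was higher on day 1 at both.

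Identifiers whose difference lasted at 25 °C moved the same way at 35 °C more often than those whose difference no later day kept. Of the 145 lasting upward, 57.9% were at least 2-fold higher on day 2 at 35 °C and 4.14% lower. Of the 287 that no later day kept, 11.5% were higher and 20.2% lower. Downward, 57.7% of the 608 lasting ones were lower on day 2 at 35 °C and 4.28% higher, whereas of the 64 kept on no later day 9.38% were lower and 31.2% higher. By day 7 at 35 °C, 64.1% of the lasting set upward were at least 2-fold above and 78.0% of the lasting set downward at least 2-fold below day 1, against 8.17% and 12.04% of all tested. Of the sets that no later day kept, 10.1% upward were above and 9.38% downward below by that measure. The lasting sets also had larger first steps at 25 °C, with medians of 1.55 against 1.21 upward and -1.50 against -1.12 downward. The filter also used the columns of both temperatures. What part either had in the shares was not tested. These are shares of single values, and the difference between the sets was not tested.

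On day 1 the sets can be compared between the temperatures only with the limit that the day 1 column at 25 °C took part in choosing them. The median difference on day 1, taken as 35 °C minus 25 °C, was -0.14 for the set higher on day 2 and -0.21 for the set lower on day 2, and -0.00379 for all identifiers. Of individual transcripts, Prupe.2G213700 was higher on day 2 by 3.42 on the log2 scale at 25 °C and by 4.39 at 35 °C. Prupe.1G007300 was higher by 3.36 at 25 °C but differed by -0.16 at 35 °C, where it stood between 0.362 FPKM and 4.17 FPKM on all 6 days.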

How the data were processed

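Flesh RNA from fruit stored at 25 or 35 °C was depleted of ribosomal RNA and sequenced from directional libraries on an Illumina instrument, per the labels' protocols. The authors deposited FPKM, 1 column for each of the 12 groups of 2 libraries. How the libraries were combined, the genome build, the annotation and the depth are not given in these sources. The submitters' processing notes name Cufflinks 2.1.1, TopHat2 2.0.10, Bowtie2 2.1.0, SAMtools 0.1.18 and FastQC 0.10.1 without their roles.

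FPKM of the 29300 rows were summed over 26873 identifiers, divided by median-of-ratios factors (0.922 to 1.06, from 12194 identifiers above 1 FPKM in every column) and filtered to at least 1 FPKM in at least 2 columns, which left 15420. Of these, 600 share all their values with another identifier, as copies sharing reads would (24 among those higher and 42 among those lower on day 2), and their levels are uncertain. The test of later days against day 1 used limma 3.58.1 in R 4.3.3 (eBayes with a mean trend). On simulated data of 15420 identifiers with independent noise it called 0% of 2-fold, 42% of 4-fold, 70.0% of 8-fold and 88% of 16-fold changes, 50 of each. The changed identifiers were drawn only from those averaging above about 5 FPKM on the later days, and each was shifted equally on all of these days. The other 15220 were left unchanged, and the share called after adjustment depends on how many change. Simulated day 1 values were given the spread of the later days, which the fit assumes and the data cannot check. The shares are therefore not the power of the test in the real data. In the real data the identifiers called lower had a median mean level of 2.02 FPKM, so these shares may not hold for them.

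Identifiers matched 0 entries of the RefSeq gene table, so the 31 lists of genes by product were empty and no sequence is shown. Named identifiers are the 2 highest and 2 lowest by first-step difference, with at least 5 FPKM on either day: in the whole table, among lasting and among returned ones, and by limma change among called ones. Each of these choices left out identifiers already named. The comparison, lists and tests were chosen with earlier results of these data known. Alternatives changed the pseudocount, filter, scaling, threshold, treatment of repeated rows, identical values or zeros, the days used and the fit.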

Additional observations from a re-analysis of the deposited data

Results flagged for a closer look

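Of the named identifiers, 3 differed at least 2-fold between day 2 and day 1 in opposite directions at the 2 temperatures, leaving out any listed at 0 in 1 of the 4 columns, such as Prupe.4G009800 on day 2 at 35 °C. Each direction rests on 1 value a day, and the difference between the temperatures was not tested. Prupe.1G161800 was lower on day 2 at 25 °C, with a log2 difference of -6.14, and higher at 35 °C, with 7.75. Prupe.3G000800 was higher at 25 °C by 3.34 and lower at 35 °C, with -3.21. Prupe.1G114500 was higher at 25 °C by 2.47 and lower at 35 °C, with -1.38.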

How the results depend on the processing

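Each alternative was planned, with earlier results known. The 1648 identifiers at least 2-fold apart in the first step became 1100 to 2373 under the other filters, scalings, pseudocount and row treatments, all within 1.5 times, and 243 at a 4-fold threshold. More were lower than higher on day 2 in each, from 524 higher against 576 lower with a mean of at least 5 FPKM to 589 against 1037 as deposited. Lasting first-step differences, 753 in all, became 454 under the stricter of these filters and otherwise 656 to 1077. The limma count of 313 became 1174 with no filter, 28 at the pseudocount of 0.1, 24 with a mean of at least 5 FPKM (11 higher, 13 lower), 171 without identifiers at 0, 538 on all 12 columns, 941 with slope on day as a term, and 16 to 1069 with 1 day left out. Other scalings gave 264 and 368. The cause was not tested. No named first-step difference changed sign. For 7 values, all with a pseudocount of 0.1, the fold that the log2 difference stands for moved by over 1.5 times. These were the values of Prupe.3G012200, Prupe.3G012400, Prupe.1G161800, Prupe.3G144500, Prupe.6G288400, Prupe.6G330900 and Prupe.1G007300. Of 130 alternative limma values of the called named identifiers, 31 lost the call and 0 changed sign. No paired analysis was possible because each group has 1 column without a library number, and no library could be left out. Depth is unknown, so what it limits cannot be stated.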

Other observations

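Identifiers next to one that differed in the first step differed in the same direction at a higher share than identifiers in general, which is a description without a test. Among 9825 adjacent tested pairs with unlike values, 431 had a first member higher on day 2, and in 40 of these, or 9.28%, the second was higher too, against 4.43% of all second members. For those lower on day 2 the numbers were 84 of 570, or 14.7%, against 5.82%. Copies with similar sequence can share reads, and their part in this was not tested. By the number that precedes the letter G in the identifier, shares higher on day 2 ranged from 3.67% for 5 to 5.00% for 4, and shares lower from 5.16% for 3 to 7.54% for 5. The 22 tested identifiers with the letter I in place of a number had 2 higher and 7 lower, or 9.09% and 31.8%. Of all tested, 4.52% were higher and 6.17% lower. The group is small, and its difference from the others was not tested.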
